A study of Homo sapiens with 12 samples.

Results

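The mRNAs examined here encode the subunits of the mitochondrial respiratory chain and ATP synthase, the enzymes of oxidative phosphorylation. They were taken by symbol: names that start with MT-ND, MT-CO, MT-CYB or MT-ATP for the mitochondrial genome, and the NDUF, SDH, UQCR, CYC1, COX4 to COX8 and ATP5 names for the nuclear genome. The rule found 94 of the 12931 rows listed for every library. Of these, 13 are the protein-coding mRNAs of the mitochondrial genome and 76 are nuclear-coded subunit mRNAs. The 76 comprise 34 of complex I (NADH dehydrogenase), 4 of complex II (succinate dehydrogenase), 10 of complex III (cytochrome bc1 complex), 13 of complex IV (cytochrome c oxidase) and 15 of complex V (ATP synthase). NDUFA4 was placed with complex IV, of which its protein is a subunit in spite of its name. The other members by name are the pseudogenes COX6A1P2, NDUFV2P1 and UQCRFS1P1 and the genes ATP5S and ATP5SL, whose proteins are not subunits.

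RNA was sequenced from WM1366, an established human melanoma line, in 12 libraries of 3 groups of 4. Combination R1 and combination R2 carry a label for a diet with inhibitors of MEK and of CDK4/6, and control carries a label for control diet. The series describes WM1366 xenograft tumours that progressed on these diets. The sample labels describe cells in Tu2% medium, and their treatment text names the CDK4/6 inhibitor palbociclib at 0.1 µM and the MEK inhibitor PD0325901 at 1 nM for every sample, control included. The labels say neither what separates R1 from R2 nor whether the 4 libraries of a group came from separate tumours or cultures, so p-values measure only the spread between these libraries.

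Complexes I to IV pass electrons from NADH and succinate to oxygen and, apart from complex II, pump protons across the inner mitochondrial membrane, and complex V makes ATP from the resulting gradient. Complexes I, III, IV and V are built from subunits of both genomes, while every subunit of complex II is nuclear-coded. Mitochondrial mRNAs are cut from long transcripts that run around each strand of the mitochondrial DNA, with every one of these mRNAs except MT-ND6 coming from the same strand. Nuclear-coded subunits are transcribed one by one, translated on cytosolic ribosomes and imported.

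Values are a normalised signal in which 1 read is worth a fixed step in each library, and libraries held 20003891 to 39009384 reads in listed rows. The 13 mitochondrial mRNAs held 2.39% ± 0.515 of all reads in R1 libraries, against 7.45% ± 2.43 in R2 libraries and 8.17% ± 1.99 in control libraries (SD, n = 4 each). The 76 nuclear subunit mRNAs held 1.10% ± 0.130 in R1, against 0.813% ± 0.0456 in R2 and 0.762% ± 0.0296 in control. Some libraries stood apart within their groups. R2 replicate 3 was the lowest R2 library for all 13 mitochondrial mRNAs, R1 replicate 1 was the highest R1 library for all 13, and R1 replicate 3 was the highest R1 library for 71 of the 76 nuclear subunits. Where leaving out a library ended the call of a named subunit, that is said beside it. Of 9 melanocyte markers looked for, 2 were listed, MITF, at a mean of 23.5 in R1 and 30.4 in R2, against 50.3 in control, and PMEL, at 27.1 in R1 and 8.81 in R2, against 5.32 in control. Of 8 endothelial markers 4 were listed, with a summed signal of 417 ± 56.2 in R1, 137 ± 13.8 in R2 and 146 ± 17.5 in control, almost all of it TIE1. Against control, 3 of the 4 rose in R1 and 0 in R2, where EGFL7 (log2 fold change -2.99) and PECAM1 (-1.09) fell. The 4 listed of 8 fibroblast and pericyte markers summed to 118 ± 36.8 in R1 and 225 ± 104 in R2, against 286 ± 43.3 in control. They did not move together. In R1 against control COL1A1 alone was called (log2 fold change -1.41). In R2 against control PDGFRB (-2.34) and LUM (-1.46) fell, while COL1A1 (-0.46) and RGS5 (0.58) were not called. CSF1R, the 1 listed of 8 leukocyte markers, averaged 2.87 in R1 and 0.539 in R2, against 1.98 in control. The part of these markers in the results was not tested. The share of reads from ribosomal protein genes averaged 10.4% ± 1.03 across R1 libraries, 6.19% ± 0.497 across R2 and 5.84% ± 0.331 across control.

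The 2 genomes moved in opposite directions in R1. Against control, R1 had 12 of the 13 mitochondrial mRNAs lower and none higher, at a median of -1.81 (log2 fold change). Among the 76 nuclear subunits, 46 rose and 5 fell, with a median of 0.43; the 5 became 3 with edgeR and 3 without R1 replicates 1, 2 or 4, R2 replicate 1 or control replicates 1, 2 or 3. In R2 no mitochondrial mRNA was called in either direction, and 11 nuclear subunits rose while 9 fell; the 11 became 4 to 7 when single libraries were left out, R2 replicates 1 or 3 or control replicates 1, 2 or 4. A gene was called, or is said to rise or fall, at a limma p-value under 0.05 after Benjamini-Hochberg adjustment over all 12931 rows. At that threshold 43.8% of all rows were called in R1 against control, 22.4% as higher and 21.4% as lower. In R2 against control 28.4% were called, 13.6% higher and 14.8% lower. The median over all rows was 0.01 for R1 and 0.03 for R2. Both comparisons use the same control libraries.

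**Figure D1:**
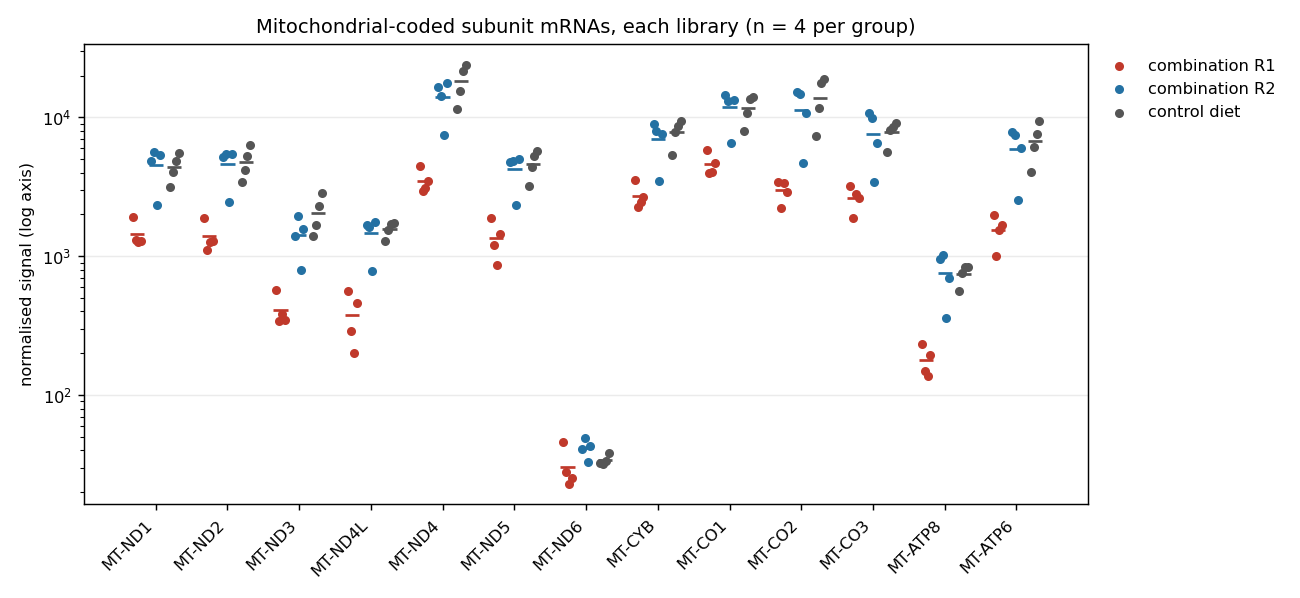
Normalised signal (log axis) of the 13 mitochondrial-coded mRNAs, with a point for each library and a bar at the mean of each group of 4. R1 points lie below all control points for every mRNA except MT-ND6, and the lowest R2 point of each mRNA is replicate 3.

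MT-ND4, a core membrane subunit of complex I, had the largest fall. Its signal was 4433, 2937, 3079 and 3501 in R1 replicates 1 to 4 and 16638, 14320, 7426 and 17663 in R2 replicates 1 to 4, against 11518, 15606, 21670 and 23858 in control replicates 1 to 4. Every R1 library lay below every R2 and every control library, and R2 and control overlapped. The mean was 5.21-fold lower in R1 than in control, with a log2 fold change of -2.34 ± 0.30 (SE, adjusted p = 2.6e-05). R2 against control gave -0.39 ± 0.30 (adjusted p = 0.35). In this bulk RNA, fewer mitochondrial genomes or mitochondria, fewer cells of a kind and less mitochondrial RNA per cell cannot be told apart.

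The other complex I mRNAs of the mitochondrial genome, apart from MT-ND6, also fell. MT-ND3, another membrane subunit, read 571, 340, 385 and 350 in R1 and 1398, 1948, 799 and 1567 in R2, against 1389, 1670, 2295 and 2844 in control. Its R1 mean was 4.98-fold lower than control (log2 fold change -2.29, adjusted p = 1.5e-05), with no overlap. MT-ND1, MT-ND2, MT-ND4L and MT-ND5 had log2 fold changes of -1.60, -1.78, -2.15 and -1.81 in R1, all without overlap.

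MT-ND6 was the 1 mitochondrial mRNA not called in R1. It is the single mRNA coded on the other strand, and its signal was 46.1, 27.7, 23.0 and 25.2 in R1 and 40.9, 49.0, 33.0 and 42.9 in R2, against 32.4, 31.6, 33.2 and 38.1 in control. The 3 groups overlapped, and R1 against control was not called (log2 fold change -0.20 ± 0.18, adjusted p = 0.41). Without R1 replicate 1, the fall was called at -0.41 (adjusted p = 0.028). The kit named in the labels does not mark strand, so MT-ND6 reads and reads antisense to it from the opposite transcript cannot be told apart.

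MT-CYB, the mitochondrial subunit of complex III that carries its b-type haems, read 3533, 2253, 2457 and 2650 in R1 and 9024, 7930, 3504 and 7591 in R2, against 5313, 7801, 8714 and 9399 in control. Its R1 mean was 2.87-fold lower than control (log2 fold change -1.51 ± 0.28, adjusted p = 0.00064). R2 replicate 3 lay inside the R1 range, while the other R2 libraries lay above it.

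The complex IV core is made of MT-CO1, which holds the oxygen-reducing site, MT-CO2, which receives electrons from cytochrome c, and MT-CO3. MT-CO1 read 5860, 3979, 4045 and 4722 in R1 and 14471, 13016, 6538 and 13423 in R2, against 8031, 10836, 13525 and 13995 in control. This was the smallest called fall among the 12, 2.49-fold (log2 fold change -1.30 ± 0.27, adjusted p = 0.0014). MT-CO2 fell 4.65-fold (log2 fold change -2.15, adjusted p = 0.00033) and MT-CO3 fell 2.99-fold (-1.58, adjusted p = 0.001).

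MT-ATP8 and MT-ATP6 encode membrane subunits of complex V and lie on 1 shared mRNA with overlapping reading frames. The 90 bases around that overlap are shown because reads there belong to both genes. They span chrM:8483-8572 on the plus strand of GRCh38, read from the GENCODE 29 transcripts, with the 46 bases common to both frames (chrM:8527-8572) in capitals.
MT-ATP8 and MT-ATP6: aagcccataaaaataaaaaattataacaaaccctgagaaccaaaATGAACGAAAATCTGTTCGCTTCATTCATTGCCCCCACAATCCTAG
The overlap covers 22.2% of MT-ATP8 and 6.75% of MT-ATP6. MT-ATP8 read 233, 150, 138 and 196 in R1 and 955, 1022, 359 and 692 in R2, against 563, 759, 840 and 835 in control. MT-ATP6 read 1970, 1001, 1543 and 1669 in R1 and 7872, 7403, 2556 and 5995 in R2, against 4051, 6129, 7610 and 9453 in control. The frames fell alike in R1, with log2 fold changes of -2.08 ± 0.28 (adjusted p = 4.2e-05) and -2.11 ± 0.35 (adjusted p = 0.00023), and no R1 library overlapped control for either. MT-ND4L and MT-ND4 share an mRNA in the same way, with 7 bases of overlap.
MT-ND4L and MT-ND4: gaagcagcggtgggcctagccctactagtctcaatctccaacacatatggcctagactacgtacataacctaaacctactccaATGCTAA
These bases are chrM:10677-10766, with the overlap (chrM:10760-10766) in capitals.

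In R2 against control none of the 13 was called by limma, edgeR or DESeq2, and none had an unadjusted limma p under 0.05. All 13 ranges overlapped, and the median log2 fold change was -0.16. In R2 against R1, all 13 were higher in R2, where 22.8% of all rows were called higher, with a median of 1.70. For 11 of them every R2 library lay above every R1 library, against 19.1% of all rows, and MT-CYB and MT-ND6 overlapped. The MT-ND6 difference was 0.48 (adjusted p = 0.047), and it was no longer called by edgeR (0.44, adjusted p = 0.075) or DESeq2 (0.44, adjusted p = 0.056), nor in 10 of the 12 fits that left out 1 library (adjusted p 0.055 to 0.14).

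Other mitochondrial rows, chosen after their values were seen, were lower in R1 too. The 12S ribosomal RNA gene MT-RNR1 had a log2 fold change of -1.86 in R1 against control (adjusted p = 0.00062) and -0.56 in R2 against control (adjusted p = 0.25). For the 16S gene MT-RNR2 these were -1.65 (adjusted p = 0.0052) and -0.47 (adjusted p = 0.43). MTATP6P1, a nuclear copy of mitochondrial DNA whose reads cannot be separated from mitochondrial ones with certainty, gave -2.71 in R1 (adjusted p = 2.6e-05) and -0.14 in R2 (adjusted p = 0.80).

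The make-up of the mitochondrial mRNA pool was compared as each mRNA's share of the reads in the 13, which does not depend on the size of the pool. MT-CO1 made up 20.1% of the reads in the 13 mRNAs in R1 and 16.1% in R2, against 13.9% in control, and the 3 groups did not overlap. MT-ND4 made up 15.1% in R1 and 18.9% in R2, against 21.4% in control, with R1 below both. MT-CYB took 11.7% in R1 and 9.36% in R2, against 9.36% in control, and MT-ND6 took 0.130% in R1 and 0.060% in R2, against 0.0424% in control. In both cases every R1 library lay above all others. Exact two-sided permutation tests over libraries gave p = 0.0286, the smallest that 4 against 4 allows, for MT-CO1, MT-CYB, MT-ND3, MT-ND4, MT-ND6 and MT-ATP6 in R1 against control. None passed after adjustment over the 39 comparisons (adjusted p = 0.101 for each of these).

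**Figure D2:**
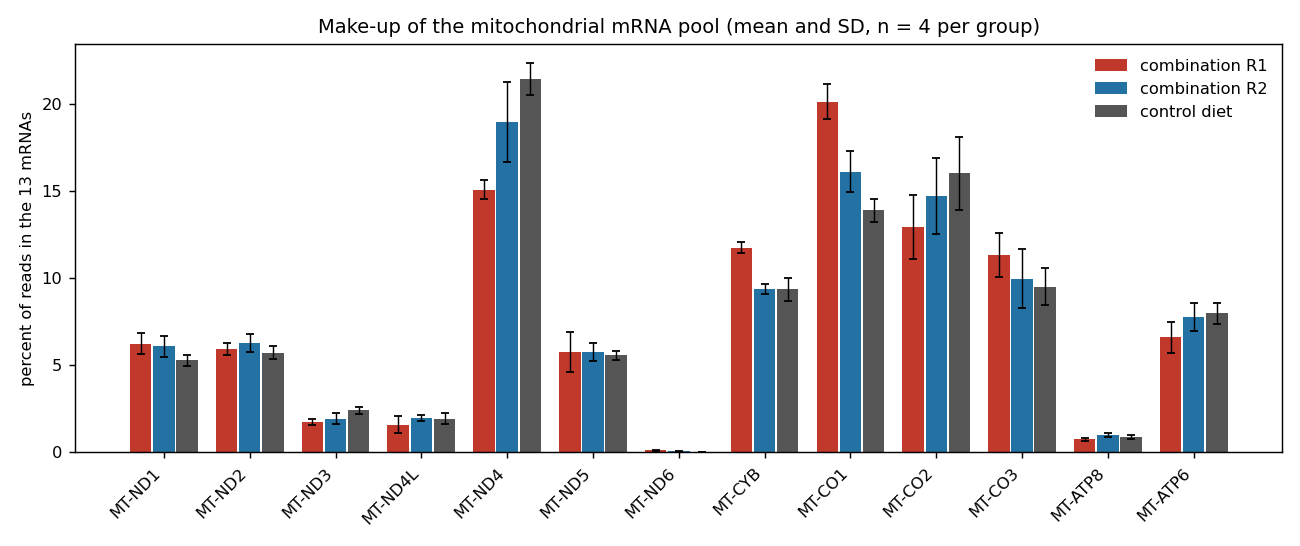
Percent of the reads in the 13 mitochondrial mRNAs that each mRNA took, as the mean of 4 libraries per group with SD. MT-CO1 is at 20.1% in R1, 16.1% in R2 and 13.9% in control, and MT-ND4 shows the opposite order.

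Per kb of mRNA, the mitochondrial mRNAs were on the whole more abundant than the nuclear ones in all 3 groups. The median signal per kb of the 13 reached 1512 in R1, against 4919 in R2 and 5924 in control, and MT-CO2 was the highest in each group at 4354, 16589 and 20259 per kb in the same order. MT-ND6 was the lowest of the 13, at 58.1 per kb in R1, against 79.0 in R2 and 64.5 in control. The 76 nuclear subunits had a median per kb of 83.1 in R1, against 73.1 in R2 and 66.7 in control. The highest nuclear subunit was COX7C at 850.2 per kb in R1, and UQCRH at 503.7 in R2 and 429.7 in control.

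**Figure D3:**
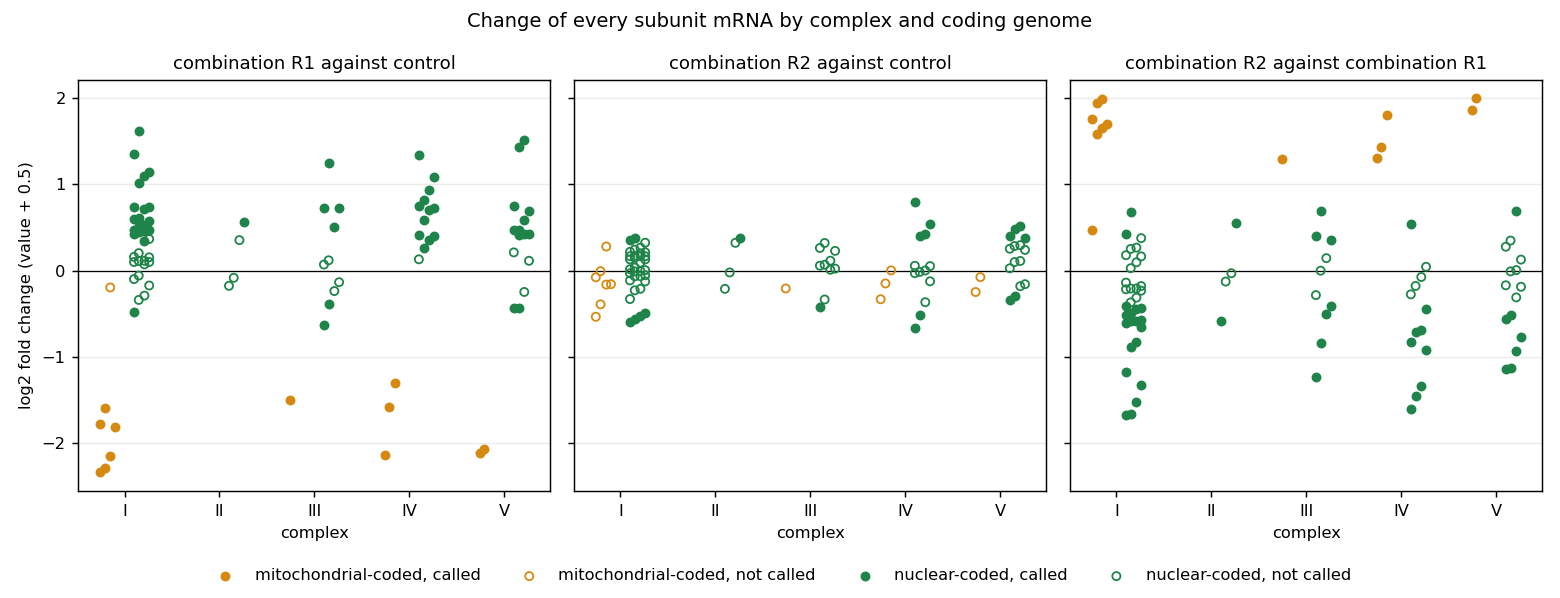
Log2 fold change (value + 0.5) of each of the 13 mitochondrial-coded and 76 nuclear-coded subunit mRNAs by complex, in 3 comparisons; filled points passed the test. In R1 against control the mitochondrial points lie between -2.34 and -0.20, while 61 of 76 nuclear points are above 0.

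The nuclear rises in R1 were spread over complexes I, IV and V and were fewer in II and III. In R1 against control 19 of 34 complex I subunits rose and 1 fell, 12 of 13 in complex IV rose and none fell, and 10 of 15 in complex V rose and 2 fell. In complex III 4 of 10 rose and 2 fell, and in complex II 1 of 4 rose. Over all rows 22.4% rose and 21.4% fell. The complex II rise (25%) and the complex III falls (20%) were near these shares. The ranges of 44 of the 76 lay wholly above control, against 20.8% of all rows, and 1 lay wholly below, against 19.0%. In complex I the rises were 3 of the 6 listed conserved core subunits, which hold the redox centres, and 16 of the 28 accessory subunits. NDUFV2, a further core subunit, was not analysed here. Without R1 replicate 3, 40 of the 76 rose and 7 fell.

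NDUFB2, an accessory subunit of the membrane arm of complex I, had the largest nuclear rise. Its signal was 62.4, 55, 89.6 and 61.0 in R1 and 24.7, 26.9, 22.5 and 17.3 in R2, against 23.8, 19.8, 21.3 and 19.9 in control. R1 lay above both other groups without overlap, and R2 overlapped control. The log2 fold change was 1.61 ± 0.16 in R1 against control (adjusted p = 2.8e-06) and 0.09 ± 0.16 in R2 against control (adjusted p = 0.71). Exons on the other strand, among them exons of the kinase gene BRAF, cover 35.1% of its annotated exon bases. BRAF itself averaged 26.4 ± 4.74 in R1 and 31.3 ± 1.78 in R2, against 26.5 ± 3.40 in control, and was called in neither comparison with control.

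NDUFA11, an accessory subunit of the membrane arm, read 25.3, 17.9, 35.8 and 25.8 in R1 and 7.21, 9.12, 7.46 and 6.70 in R2, against 10.9, 9.93, 9.90 and 8.09 in control. It rose in R1 (log2 fold change 1.35 ± 0.18, adjusted p = 4.2e-05), with no overlap, and was -0.33 ± 0.18 in R2 (adjusted p = 0.19). Among core subunits, NDUFS1, the largest iron-sulfur subunit, rose by 0.34 (adjusted p = 0.0092) and NDUFV1, which binds NADH, by 0.45 (adjusted p = 0.0057).

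NDUFA3, a small accessory subunit, was the 1 complex I subunit that fell in R1. It read 43.3, 43.3, 60.6 and 41.6 in R1 and 83.5, 74.6, 80.3 and 63.8 in R2, against 73.5, 63.9, 73.8 and 52.7 in control. R1 replicate 3 reached into the control range, and the log2 fold change was -0.48 ± 0.14 (adjusted p = 0.014). R2 against R1 was 0.68 (adjusted p = 0.0015) with no overlap. In R2 against control 2 complex I subunits rose, NDUFV3 (0.38, adjusted p = 0.019) and NDUFA5 (0.35, adjusted p = 0.043). Without R2 replicate 3 neither was called (adjusted p = 0.06 and 0.077). NDUFV3 was also lost without control replicate 4 (adjusted p = 0.056), and NDUFA5 was lost in 8 of the 12 fits without 1 library, those without each control library included (adjusted p 0.051 to 0.12). In the same comparison 4 complex I subunits fell, among them NDUFA9, NDUFB8 and NDUFC1. The rises were 5.88% and the falls 11.8% of the 34, both under the shares of all rows (13.6% higher and 14.8% lower). NDUFC1 falls outside the naming rule, as does NDUFA13 below, and both were chosen after their values were seen. The NDUFC1 call was not followed through the fits without 1 library.

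Complex II showed no shared direction. SDHA, the flavoprotein that oxidises succinate, read 116, 114, 142 and 130 in R1 and 193, 199, 179 and 166 in R2, against 130, 134, 156 and 146 in control. It rose in R2 against control (0.38 ± 0.10, adjusted p = 0.013), where no R2 library overlapped control, and was -0.18 in R1 (adjusted p = 0.18). SDHC, a membrane anchor, read 99.2, 93.9, 108 and 105 in R1 and 66.6, 68.9, 65.9 and 68.7 in R2, against 66.8, 67.8, 70.5 and 69.3 in control. It was the 1 of the 4 that rose in R1 (0.56 ± 0.08, adjusted p = 8.1e-05). SDHB, the iron-sulfur subunit, gave -0.08 in R1 and -0.21 in R2, and SDHD, the other anchor, gave 0.35 (adjusted p = 0.051) and 0.32 (adjusted p = 0.097). SDHD became called in R1 under edgeR (adjusted p = 0.042), DESeq2 (0.043), quantile normalisation (0.038), rescaling without mitochondrial and ribosomal protein genes (0.027) and the replicate block (0.032), and without R1 replicate 2 (0.0032) or control replicate 4 (0.028).

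In complex III, UQCRQ and UQCR10, both small subunits, went opposite ways in R1. UQCRQ read 244, 224, 327 and 238 in R1 and 116, 112, 110 and 96.1 in R2, against 108, 101, 119 and 102 in control. R1 was above both groups, and the log2 fold change was 1.25 ± 0.12 in R1 (adjusted p = 2e-06) and 0.01 in R2 (adjusted p = 0.97). UQCR10 read 57.6, 52.0, 82.3 and 60.3 in R1 and 101, 97.4, 102 and 101 in R2, against 104, 99.3, 104 and 81.7 in control. R1 replicate 3 reached the lowest control library, and the fall was -0.64 ± 0.13 (adjusted p = 0.0013). UQCRB, the quinone-binding protein, also fell in R1 (-0.38, adjusted p = 0.014), below every control library. The hinge protein mRNA UQCRH rose (0.73, adjusted p = 5.2e-05), as did the near-identical UQCRHL (0.73, adjusted p = 0.00017), whose reads cannot be assigned between the 2 with certainty. The core and electron-transfer subunits were not called in R1: UQCRC1 gave -0.14, UQCRFS1, the Rieske protein, 0.12, and cytochrome c1, CYC1, 0.07. UQCRC1 fell in R2 (-0.42, adjusted p = 0.021), a call lost without R2 replicates 2 or 4 or control replicate 3 (adjusted p 0.055 to 0.069).

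Complex IV had the largest share of rises. COX7C read 491, 515, 716 and 543 in R1 and 226, 226, 237 and 197 in R2, against 212, 202, 248 and 223 in control. All R1 libraries lay above all others, at a log2 fold change of 1.34 ± 0.12 (adjusted p = 1.4e-06), while R2 gave 0.00 ± 0.12 (adjusted p = 1.00). COX4I1, the largest nuclear subunit, rose less in R1 (0.41, adjusted p = 0.026), and COX6B1 was the 1 subunit not called (0.13, adjusted p = 0.45). COX5B, which binds zinc, rose in R1 (0.35, adjusted p = 0.045) and in R2 (0.40, adjusted p = 0.039). Both COX4I1 and COX5B lost the call in R1 without R1 replicate 3 (0.29, adjusted p = 0.074, and 0.22, adjusted p = 0.12). The COX4I1 call was also lost without control replicates 1 or 2, and that of COX5B without R2 replicates 1 or 3 or control replicates 1, 2 or 4 (adjusted p 0.055 to 0.12). The R2 call of COX5B was lost without R2 replicates 1, 2 or 3 or control replicates 1, 2 or 4 (adjusted p 0.079 to 0.11).

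COX7A1 and COX7A2 encode alternative forms of a single subunit, and COX7A2L is related to them. COX7A1, the form of heart and skeletal muscle, read 14.3, 22.8, 24.6 and 17.2 in R1 and 7.56, 10.5, 5.24 and 4.77 in R2, against 7.57, 8.37, 12.1 and 7.77 in control. It rose in R1 (1.09 ± 0.24, adjusted p = 0.0022) and overlapped control in R2 (-0.37, adjusted p = 0.27), while none of 7 muscle and adipocyte markers was listed. COX7A2, the widespread form, rose in R1 (0.82, adjusted p = 0.00038) and gave -0.02 in R2 (adjusted p = 0.95). COX7A2L, which joins complexes III and IV into supercomplexes, read 79.9, 84.3, 99.3 and 81.2 in R1 and 126, 127, 118 and 130 in R2, against 69.1, 69.5, 78.2 and 70.6 in control. The 3 groups were separate, and COX7A2L was the 1 nuclear subunit called up in all 3 comparisons, by 0.26 in R1 (adjusted p = 0.037), 0.80 in R2 (adjusted p = 2.1e-05) and 0.54 in R2 against R1 (adjusted p = 0.00032). Its R1 call was lost when the fit held R1 and control alone (adjusted p = 0.071) and without R1 replicate 3, R2 replicate 1 or control replicates 1, 2 or 4 (adjusted p 0.051 to 0.088). NDUFA4 rose in R1 (0.72, adjusted p = 0.00015) and in R2 (0.54, adjusted p = 0.0023).

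In complex V, ATP5E, the epsilon subunit of the catalytic head, read 270, 247, 350 and 255 in R1 and 143, 132, 117 and 116 in R2, against 103, 94.3, 101 and 89.4 in control. The groups were separate, with log2 fold changes of 1.51 ± 0.12 in R1 (adjusted p = 3.1e-07) and 0.38 ± 0.12 in R2 (adjusted p = 0.027). The R2 call was lost without R2 replicates 1 or 2 or control replicates 2 or 4 (adjusted p 0.057 to 0.085). ATP5H, the d subunit of the stalk, rose in R1 (1.44, adjusted p = 7.3e-07) and gave 0.29 in R2 (adjusted p = 0.09). Of the catalytic pair, ATP5B (beta) read 1166, 961, 1594 and 1367 in R1 and 651, 628, 697 and 645 in R2, against 771, 710, 751 and 741 in control, a rise of 0.75 ± 0.14 in R1 (adjusted p = 0.00053). ATP5A1 (alpha) gave 0.21 in R1 (adjusted p = 0.092) and fell in R2 (-0.30, adjusted p = 0.031), a call lost without R2 replicates 1, 3 or 4 or any control library (adjusted p 0.052 to 0.087).

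ATP5G1, ATP5G2 and ATP5G3 all encode the same mature c subunit of the membrane rotor. They rose together in R1, by 0.59 (adjusted p = 0.0077), 0.43 (adjusted p = 0.0088) and 0.69 (adjusted p = 0.0039). In R2, ATP5G1 gave 0.03 (adjusted p = 0.92), ATP5G2 gave -0.34 (adjusted p = 0.041) and ATP5G3 gave 0.52 (adjusted p = 0.031). The last 2 calls were lost when any of several single libraries was left out, though R2 and control did not overlap for either gene. That of ATP5G2 was lost without R2 replicates 2, 3 or 4, R1 replicate 4 or control replicates 1, 3 or 4 (adjusted p 0.052 to 0.12), and that of ATP5G3 without R2 replicates 1, 2 or 3 or control replicates 2, 3 or 4 (adjusted p 0.05 to 0.093). ATP5I and ATP5J2, the e and f subunits of the membrane part, were the 2 that fell in R1. ATP5I read 33.4, 34.2, 55.5 and 36.2 in R1 and 50, 42.7, 53.8 and 43.3 in R2, against 55.7, 54.1, 60.6 and 42.4 in control. Groups overlapped, and the fall (-0.43 ± 0.16, adjusted p = 0.041) was not called by edgeR (adjusted p = 0.052). ATP5J2 (-0.44, adjusted p = 0.045) was likewise not called by edgeR (-0.40, adjusted p = 0.07). Without 1 library, ATP5I lost the call in 7 of 12 fits (adjusted p 0.051 to 0.11; 0.11 without R1 replicate 1) and ATP5J2 in 10 of 12 (0.051 to 0.12; 0.097 without R1 replicate 1). Of the members that are not subunits, ATP5S rose in R1 (0.67, adjusted p = 0.0099) and ATP5SL fell (-0.72, adjusted p = 5.4e-05).

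**Figure D4:**
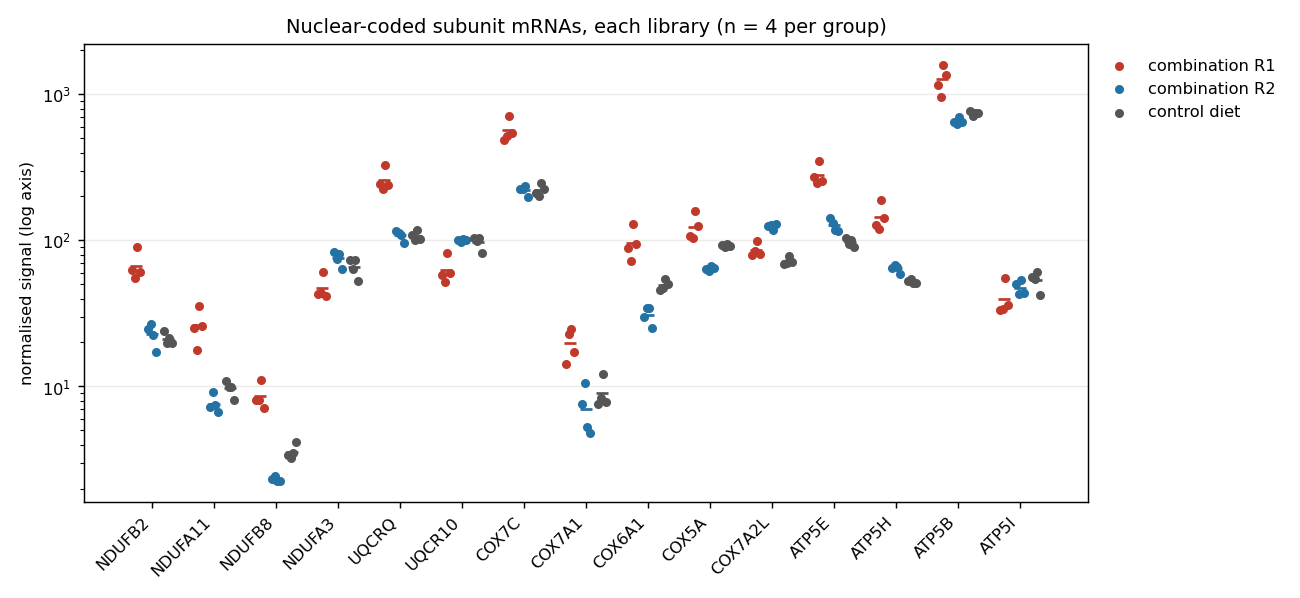
Normalised signal (log axis) of 15 nuclear-coded subunit mRNAs, with a point for each library and a bar at the mean of each group of 4. NDUFB2, UQCRQ, COX7C, ATP5E and ATP5H are highest in R1, NDUFA3 and UQCR10 are lowest in R1, and COX7A2L is highest in R2.

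R2 against R1 separated the nuclear subunits again: 36 of 76 fell in R2 and 8 rose, with a median of -0.31, where 46.8% of all rows were called, 22.8% higher and 24.0% lower. By complex the falls and rises were 17 and 2 of 34 in I, 1 and 1 of 4 in II, 4 and 3 of 10 in III, 8 and 1 of 13 in IV, and 6 and 1 of 15 in V. The ranges of 35 lay wholly below R1, against 20.3% of all rows. Over the 3 comparisons the most common pattern was a rise in R1, no call in R2 against control and a fall in R2 against R1, seen for 27 of the 76. The share of all rows with this pattern was not counted. A further 6 rose in both R1 and R2 with no call between them.

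For 5 subunits the R1 and R2 calls against control were opposite. R2 against R1 was also called for each, which this choice of subunits makes likely, so it is no separate support. How many of all rows had opposite calls was not counted. The R2 fall against control was lost for ATP5G2 in 7 of the 12 fits without 1 library and for NDUFB8 without control replicate 4 (adjusted p = 0.054). COX6A1, a complex IV subunit of most tissues, read 89.1, 72.7, 131 and 94.3 in R1 and 30.0, 34.6, 34.4 and 25 in R2, against 45.6, 47.2, 54.3 and 50.4 in control. The 3 groups were separate, with log2 fold changes of 0.93 in R1 (adjusted p = 0.0003) and -0.67 in R2 (adjusted p = 0.0055), and R2 against R1 was -1.60 ± 0.16 (adjusted p = 2.8e-06). COX5A, another complex IV subunit, gave 0.40 (adjusted p = 0.015) and -0.52 (adjusted p = 0.0049). The complex I subunits NDUFA9 and NDUFB8 gave 0.57 and -0.60, and 1.14 and -0.53. ATP5G2 was described above, and the genome neighbourhoods of all 5 are given below.

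Some subunits share exon bases with other genes in GENCODE 29, and examples are given with their signal per kb. COX8A, with the largest share on its own strand (34.5%), stood at 333 per kb in R1, 201 in R2 and 217 in control. It is named outside the rule, after its values were seen. NDUFV3 and NDUFA5, at 4.96 and 9.60 per kb in R1, share no exon bases on either strand. NDUFB8 stood at 12.7 per kb in R1, 3.44 in R2 and 5.32 in control, and its signal lay between 2.25 and 11 across libraries. Other genes cover 33.8% of its exon bases on its own strand and 16.3% on the other. NDUFA13 had the lowest signal of the nuclear subunits, at 1.34 in R1, 0.944 in R2 and 1.17 in control. Per kb these were 1.35, 0.953 and 1.18. Of its exon bases 21.0% are shared on its strand, in part with YJEFN3. Exons of another gene touch 21 of the 76 subunits on the same strand and 31 on the other strand. How the authors' counting treated such reads is not given in the sources used here, and its part in these values was not tested.

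Setting the genomes side by side within each complex gave 1 value per library, the mean log2 signal of mitochondrial-coded mRNAs minus that of nuclear-coded mRNAs. Over complexes I, III, IV and V together it averaged 3.50 ± 0.44 across R1 libraries, 5.49 ± 0.61 across R2 libraries and 5.69 ± 0.37 across control libraries (SD, n = 4 each). R1 minus control was -2.19, a mitochondrial-to-nuclear ratio 4.56-fold lower. By complex, R1 minus control was -2.14 in I, -1.71 in III, -2.33 in IV and -2.52 in V. In each of the 4 complexes every R1 library lay below every R2 and every control library. R2 minus control was -0.20 and changed sign to 0.10 without R2 replicate 3. R2 minus R1 was 1.99, and 2.29 without that library. As reads, the 13 mitochondrial mRNAs outnumbered the 72 nuclear ones of these complexes 2.30 ± 0.594 to 1 in R1, 9.80 ± 3.44 to 1 in R2 and 11.4 ± 3.18 to 1 in control.

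**Figure D5:**
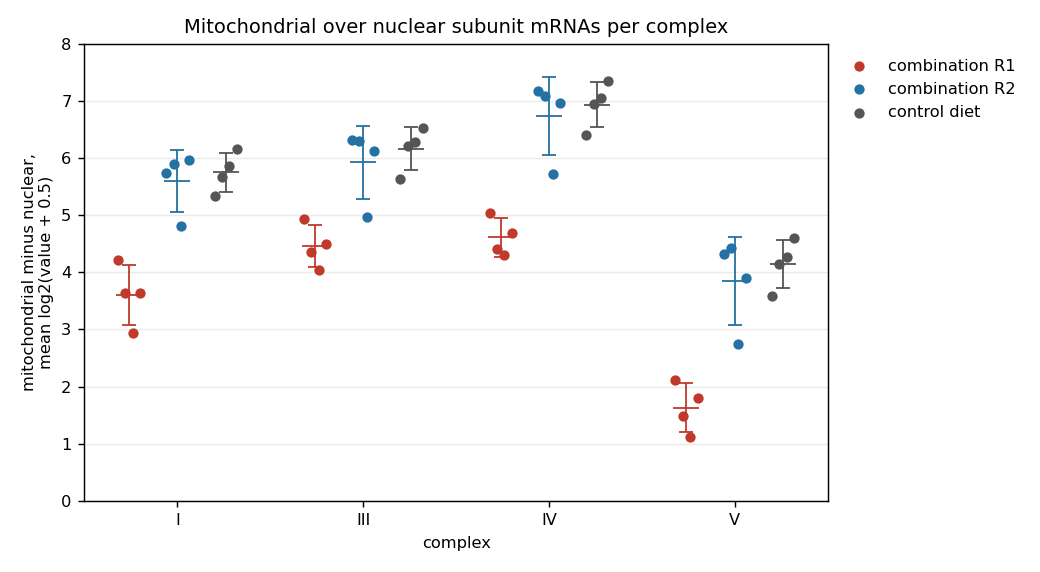
Mean log2(value + 0.5) of mitochondrial-coded minus nuclear-coded subunit mRNAs of complexes I, III, IV and V in each library, with group mean and SD (n = 4). R1 libraries lie below all R2 and control libraries in each complex, and R2 replicate 3 is the lowest R2 library.

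The subunits were also counted by protein length. In R1 against control, 14 of 20 subunits of up to 100 codons rose and 4 fell. Of more than 100 and up to 200 codons, 25 of 37 rose and 1 fell. Of over 200 codons, 7 of 19 rose and 0 fell. Over all nuclear protein-coding rows the rises were 100 of 235, 411 of 1208 and 2055 of 10137, and the falls 38, 205 and 2259. Across the 76 subunits, Spearman's rho between codons and the R1 log2 fold change was -0.26, and across 11580 rows it was -0.13. Genes of 1 library set are not independent, and these are descriptions.

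Promoters are printed for NDUFB2, the largest nuclear rise in R1, and for NDUFA3 and ATP5I, 2 of the nuclear falls, because they differ in the motif searched for. Each is the 250 bases before the RefSeq start site (GRCh38.p14), 5′ to 3′ on the gene's strand, with matches to the NRF1 core in capitals. NRF1 is a transcription factor known to act on many respiratory chain genes. The NDUFB2 stretch holds no match, and the other two hold a pair each.
NDUFB2, chr7:140696458-140696707, plus strand: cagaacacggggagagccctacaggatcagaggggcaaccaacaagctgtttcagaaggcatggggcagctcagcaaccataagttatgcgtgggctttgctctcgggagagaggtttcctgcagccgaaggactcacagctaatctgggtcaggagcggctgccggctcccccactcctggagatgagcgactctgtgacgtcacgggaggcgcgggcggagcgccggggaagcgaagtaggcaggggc
NDUFA3, chr19:54102605-54102854, plus strand: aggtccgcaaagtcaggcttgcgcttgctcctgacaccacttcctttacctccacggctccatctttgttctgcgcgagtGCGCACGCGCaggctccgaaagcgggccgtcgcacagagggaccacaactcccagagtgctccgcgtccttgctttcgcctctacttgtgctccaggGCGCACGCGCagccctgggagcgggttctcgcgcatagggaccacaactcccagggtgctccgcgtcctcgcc
ATP5I, chr4:674277-674526, minus strand: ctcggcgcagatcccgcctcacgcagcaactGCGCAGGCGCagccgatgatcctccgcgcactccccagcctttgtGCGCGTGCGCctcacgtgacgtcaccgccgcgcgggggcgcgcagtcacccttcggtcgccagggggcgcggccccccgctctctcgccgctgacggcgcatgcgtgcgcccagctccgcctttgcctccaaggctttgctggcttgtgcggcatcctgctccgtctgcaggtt

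The NRF1 core, with 1 position left free (any base), was searched on both strands from 250 bases before to 50 after each start. It lay in 15 of the 61 nuclear subunit promoters held by the table (24.6%), against 1716 of 27305 promoters (6.28%). Among promoters held by the table, it was present in 5 of 36 of subunits that rose in R1, in 3 of 3 of those that fell (NDUFA3, UQCR10 and ATP5I) and in 7 of 22 of those not called. NDUFA11 is among the risers that hold it. The stricter NRF1 core with that position fixed, a special case of it, lay in 4 of 61 (6.56%), against 1.36% of all promoters. The ETS core bound by GABPA, ACCGGAAG, lay in 5 of 61 (8.20%), against 2.32%. The YY1 core lay in 4 of 61 (6.56%), against 0.916%, and the oestrogen-related receptor element TCAAGGTCA in 1 of 61 (1.64%), against 0.359%. A match is a string of letters in the window and shows no binding.

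The genome neighbourhood was compared for each subunit over listed rows within 2 Mb on either side. Most neighbours were lower in R1 for 4 of 74 subunits with at least 5 neighbours (5.41%), against 6.92% of all rows, near the background. In R2 against control this held for 1 of 74 (1.35%), against 5.81%, and in R2 against R1 for 6 of 74 (8.11%), against 7.97%. For ATP5I (chr4:672436-674338) 22 of 29 neighbours fell in R1 and 1 rose, with a median of -0.81 beside its own -0.43. For COX5A (chr15:74919791-74938168) 32 of 38 neighbours fell in R2 and 1 rose, with a median of -0.87 beside its own -0.52. For NDUFB2 7 of 21 neighbours rose in R1 and 3 fell, with a median of 0.12 beside its own 1.61. Of the other subunits with opposite R1 and R2 calls, ATP5G2 had 17 of 40 neighbours lower in R2 and 0 higher (median -0.32 beside its own -0.34). NDUFA9 had 14 of 31 lower and 2 higher (-0.44 beside -0.60). COX6A1 had 12 of 40 lower and 1 higher (-0.24 beside -0.67), and NDUFB8 3 of 42 lower and 2 higher (-0.06 beside -0.53). Over all rows 14.8% fell in R2. In R2 against R1, 29 of 38 COX5A neighbours fell and 1 rose (median -0.76 beside its own -0.92). For ATP5G2 29 of 40 fell and 2 rose (-0.73 beside -0.77), and for COX6A1 26 of 40 fell and 1 rose (-0.51 beside -1.60). NDUFA9 had 5 of 31 lower and 5 higher (-0.03 beside -1.18), and NDUFB8 7 of 42 lower and 9 higher (0.07 beside -1.67). In that comparison 24% of all rows fell. These neighbourhoods were chosen for mention after their values were seen.

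Assembly factors, which build the complexes but are not part of them, were called in both directions (over all rows, 22.4% rose and 21.4% fell in R1). In R1 against control 1 of 17 complex I assembly factors rose and 4 fell, and 6 of 24 complex IV assembly factors rose and 4 fell. NDUFAF4, a complex I assembly factor, rose in R1 (0.76, adjusted p = 0.00012), and ECSIT, another, fell (-0.48, adjusted p = 0.0037). COX10, which makes haem for complex IV, read 12.3, 12.4, 12.9 and 13.7 in R1 and 16.4, 14.5, 20.4 and 24.4 in R2, against 34.9, 32.9, 32.4 and 31.5 in control. Both groups lay below control, at -1.33 in R1 (adjusted p = 5.2e-06) and -0.81 in R2 (adjusted p = 0.00062). SCO1, a copper carrier for MT-CO2, gave -0.83 (adjusted p = 1.4e-05) and -1.05 (adjusted p = 2.5e-06). TTC19, a complex III assembly factor, gave -1.01 (adjusted p = 6.6e-05) and -1.38 (adjusted p = 7e-06).

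COX10, SCO1 and TTC19 all lie on the short arm of chromosome 17, between chr17:10672474-10698375 (SCO1) and chr17:15999380-16045015 (TTC19). ELAC2 lies in the same stretch. ELAC2, which cuts mitochondrial transcripts at the 3′ ends of tRNAs, gave -0.77 in R1 (adjusted p = 0.00024) and -0.75 in R2 (adjusted p = 0.00047). Around COX10 12 of 16 listed neighbours fell in R2 and 8 of 16 in R1, and around TTC19 25 of 32 fell in R2 and 17 of 32 in R1. This position was noticed after the values were seen.

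Of 31 genes for mitochondrial transcription and RNA processing 8 rose and 6 fell in R1, near the shares of all rows (22.4% and 21.4%). TFAM, which packages mitochondrial DNA and starts its transcription, gave -0.39 in R1 (adjusted p = 0.082) and -0.11 in R2 (adjusted p = 0.68), and the mitochondrial RNA polymerase POLRMT gave 0.27 (adjusted p = 0.066) and 0.07 (adjusted p = 0.69). SLIRP, which stabilises mitochondrial mRNAs, rose in R1 (0.80, adjusted p = 0.0011), as did the transcription factor TFB2M (0.47, adjusted p = 0.006). TBRG4, an RNA-binding protein of the same organelle, fell (-0.57, adjusted p = 0.00034). POLG, the polymerase that copies mitochondrial DNA, fell in R1 (-0.36, adjusted p = 0.018) and in R2 (-0.98, adjusted p = 1.6e-05).

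The median change of 13 listed regulators of mitochondrial biogenesis was -0.27 in R1, where 1 rose and 6 fell. Over all rows the median in R1 was 0.01, and 22.4% rose and 21.4% fell. ESRRA, a nuclear receptor that acts on respiratory chain genes, was the 1 that rose. It read 87.9, 97.0, 114 and 91.7 in R1 and 54.3, 53.2, 65.1 and 49.0 in R2, against 45.9, 46.0, 51.0 and 47.5 in control (R1 log2 fold change 1.02, adjusted p = 5.9e-06). TFAM, POLRMT and the coactivator PPARGC1A are named outside the rule, after their values were seen. PPARGC1A, with signals of 2.94 to 6.27 in R1, against 7.17 to 10.5 in control, fell in R1 (-1.14, adjusted p = 0.00097). Its relative PPARGC1B rose in R2 (1.20, adjusted p = 0.0014). The deacetylase SIRT3 fell in R1 (-0.77, adjusted p = 8.6e-05) and rose in R2 (0.34, adjusted p = 0.038), and 28 of its 38 listed neighbours on chromosome 11 fell in R1.

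Of 17 electron carriers and dehydrogenases that feed the chain, 3 rose and 3 fell in R1, and 2 rose and 3 fell in R2. Over all rows 22.4% rose and 21.4% fell in R1, and 13.6% and 14.8% in R2. Cytochrome c, CYCS, which links complexes III and IV, read 190, 141, 224 and 198 in R1 and 282, 296, 330 and 353 in R2, against 184, 197, 155 and 171 in control. It rose in R2 (0.83, adjusted p = 0.00039) and gave 0.07 in R1 (adjusted p = 0.68). ETFB, a subunit of the flavoprotein that passes electrons from fatty acid oxidation, rose in R1 (1.22, adjusted p = 3.2e-05), and its partner ETFA fell in R2 (-0.86, adjusted p = 0.00014). In the TCA cycle 4 of 18 rose and 2 fell in R1, and 1 rose and 4 fell in R2. IDH2, a mitochondrial isocitrate dehydrogenase, fell in R2 (-1.96, adjusted p = 0.00082). The R2 falls of IDH2, POLG and ETFA lie on chromosome 15 among rows that also fell in R2. Of the listed neighbours 30 of 34 fell for IDH2 and for POLG (median -0.86 for each) and 33 of 38 for ETFA (median -0.82).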

How the data were processed

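RNA from 12 WM1366 libraries was prepared with the RNeasy and TruSeq RNA Library Prep Kit v2 named in the labels' protocols. The submitters' processing notes name STAR, edgeR and GRCh38, with no versions. The deposited values are a normalised signal per gene, made by the authors. In every library each value was a whole multiple of 1 step within 0.001 reads, so the reads behind them were recovered. Totals were 20003891 to 39009384 reads per library.

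Differences were tested with limma 3.58.1 (R 4.3.3) on log2(value + 0.5), with a mean-variance trend, over all 12 libraries and 12931 rows, and called at a Benjamini-Hochberg adjusted p under 0.05. A fold change on this scale understates the change of low genes. Alternatives were other pseudocounts, a filter on means under 5, rescaling, quantile normalisation, edgeR 4.0.16 and DESeq2 1.42.0 on recovered reads, fits of 2 groups, a replicate block and leaving out each library. The fit was tested on simulated data. Python 3.11.15 with pandas 2.3.3, numpy 2.4.6, scipy 1.17.1 and matplotlib 3.10.9 was used for summaries, exact permutation tests and figures. Lengths, exons and mitochondrial bases came from GENCODE 29, and promoters from RefSeq (GRCh38.p14), which held 62 of the 94 members.

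Members and gene lists were chosen with earlier results of these data known. Named were all mitochondrial mRNAs, complex II, the 2 largest called rises and falls per complex and comparison with a mean of at least 5, core subunits, isoform pairs and, from each related list, up to 2 called genes per direction and comparison with the smallest p. Replicate numbers were not taken to pair the libraries in the main fit. Same-numbered deviations correlated between -0.31 and 0.39, and the highest correlation with another number ran from -0.015 to 0.43, which does not settle pairing. A result under the naming rule is not reported here.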

Additional observations from a re-analysis of the deposited data

Results flagged for a closer look

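Groups of 4 libraries were searched for a library set apart from the other 3 by Dixon's criterion. It marked 21 of 195 groups, where chance marks about 1 in 20. No cause was tested.

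R1 replicate 3 was the high library in 7 of the marked groups. ATP5G2 read 466 there, against 348 to 368 in the other R1 libraries. ATP5I read 55.5, against 33.4 to 36.2, and ATP5L read 242, against 177 to 186. COX6B1 read 208, against 140 to 149, and NDUFA3 read 60.6, against 41.6 to 43.3. NDUFV1 read 264, against 195 to 205, and NDUFV3 read 27.8, against 21.1 to 22.2.

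R2 replicate 3 was the low library for MT-ND2 (2470, against 5197 to 5470 in the other R2 libraries), MT-ND4L (789, against 1622 to 1757) and MT-ND5 (2328, against 4806 to 5053). In the same library the mean log2 signal of mitochondrial minus nuclear mRNAs was 4.97 in complex III, against 6.12 to 6.32, 5.72 in complex IV, against 6.97 to 7.17, and 4.58 over all complexes, against 5.74 to 5.86.

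Other libraries were marked for single genes. MT-ND1 read 1905 in R1 replicate 1, against 1268 to 1313, and CYC1 read 164 in R1 replicate 4, against 194 to 200. In R2 replicate 2, ATP5S read 17.1, against 8.58 to 10, and NDUFB10 read 158, against 125 to 128. COX7A2L read 78.2 in control replicate 3, against 69.1 to 70.6, and UQCRB read 245, against 200 to 207. In control replicate 4, NDUFB10 read 126, against 121 to 122, and NDUFV3 read 19.1, against 20.2 to 20.4.

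For 5 subunits the calls of R1 and R2 against control were opposite. R2 against R1 was also called by limma, which this choice of subunits makes likely, so it is no separate support. The R2 against R1 log2 fold changes were -0.77 for ATP5G2 (adjusted p = 0.00012), -0.92 for COX5A (adjusted p = 3.4e-05), -1.60 for COX6A1 (adjusted p = 2.8e-06), -1.18 for NDUFA9 (adjusted p = 4.8e-05) and -1.67 for NDUFB8 (adjusted p = 1.1e-06). The R2 fall of ATP5G2 against control was lost in 7 of the 12 fits without 1 library, and that of NDUFB8 without control replicate 4 (adjusted p = 0.054).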

How the results depend on the processing

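No result changed direction past the threshold under any setting tried. The count of nuclear subunits lower in R1 than in control (5) was 3 with edgeR, 3 with only R1 and control in the fit, and 3 to 7 when single libraries were left out (3 without R1 replicates 1, 2 or 4, R2 replicate 1 or control replicates 1, 2 or 3). The count higher in R2 than in control (11) was 17 with only R2 and control in the fit and 4 to 15 without single libraries: 5 without R2 replicate 1, 6 without R2 replicate 3, 7 without control replicate 1, 5 without control replicate 2 and 4 without control replicate 4. Without single libraries, 12 to 13 mitochondrial mRNAs fell and 40 to 49 nuclear subunits rose in R1 against control, and the mitochondrial minus nuclear difference of R2 and control, which has no test, ran from -0.36 to 0.10. Replicate numbers were not taken as pairs in the main fit. With the replicate block, 12 mitochondrial mRNAs fell in R1, and 48 nuclear subunits rose and 6 fell. In the same fit 11 nuclear subunits rose and 9 fell in R2, and 9 rose and 39 fell in R2 against R1. Of the named members called in R1 against control, 41 of 46 kept the call without each library in turn, as did 8 of 17 in R2 against control and 42 of 45 in R2 against R1. With 4 libraries a group, their number limits what small differences can pass, and the causes were not tested.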
